A study of Mus musculus with 4 samples.

Results

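Galectins are small lectins that bind glycans ending in beta-galactosides, and 5 genes of the family were examined here in lumbar spinal cord RNA: Lgals1, Lgals3, Lgals4, Lgals8 and Lgals9. They were taken by gene name from the deposited table, in which all 5 were found among 18674 gene names. The table has 1 library for each of 4 conditions. WT mice and G93A mice were each studied under vehicle (WT vehicle and G93A vehicle) and under spermidine (WT + SD and G93A + SD). G93A mice carry a human SOD1 transgene with an ALS mutation, are of a high-expressing line on a B6/SJL background, and develop motor neuron disease. SD, a natural polyamine, or PBS was given for 30 days, and the cord was taken at 100 days of age. The study's methods give 4 doses a week, while its account of the motor tests gives 5. According to the study's methods the treated mice were males. How many animals went into each library was not stated in the sources used here. With 1 library per condition, no difference has a replicate check, no p-value is given, and genotype or treatment cannot be told apart from a difference between the animals or dissections.

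Galectins are made without a signal peptide and act both in the cytosol and, after release, on the cell surface, where they cross-link glycoproteins. Galectin-1, encoded by Lgals1, has a single sugar-binding domain and works as a dimer. Galectin-3, encoded by Lgals3 and also known as Mac-2, joins a single such domain to a flexible tail and is a classical product of activated macrophages and microglia. Galectin-4, galectin-8 and galectin-9, encoded by Lgals4, Lgals8 and Lgals9, carry a pair of sugar-binding domains on 1 chain. Galectin-9 is a ligand of the receptor TIM-3, galectin-8 is known for marking damaged endosomes, and galectin-4 is best known from the gut epithelium.

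The members lie on different chromosomes of GRCm38 and each is annotated as protein coding. Lgals1 is on chromosome 15 from 78926725 to 78930465 and Lgals3 on chromosome 14 from 47367751 to 47386160, and chromosome 7 carries Lgals4 between 28833854 and 28841708, all on the plus strand. Lgals8 is on chromosome 13 from 12439415 to 12464944 and Lgals9 on chromosome 11 from 78962974 to 78984946, both on the minus strand. The Lgals8 locus overlaps Heatr1, on the opposite strand, over 875 bases, and whether reads were counted by strand was not given in the sources used here. The other members overlap no annotated gene. The listed transcripts have 4 exons for Lgals1, 6 for Lgals3, 10 for Lgals4 and Lgals8, and 10 or 11 for Lgals9.

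RefSeq start-site sequences were found for 4 of the 5 members, Lgals1 being the exception. The RefSeq start of Lgals3 lies within the longer GENCODE span given above. Those of Lgals3 and Lgals9 are printed because the RNA of both genes was higher in the G93A libraries. Each runs 5′ to 3′ on the gene's strand, from 250 bases before the start to 50 bases after it (GRCm38.p6), and capitals mark matches to GAAANNGAA, letters of the interferon-stimulated response element. The motifs were chosen after the levels had been seen.
Lgals3, chr14:47373610-47373909, plus strand: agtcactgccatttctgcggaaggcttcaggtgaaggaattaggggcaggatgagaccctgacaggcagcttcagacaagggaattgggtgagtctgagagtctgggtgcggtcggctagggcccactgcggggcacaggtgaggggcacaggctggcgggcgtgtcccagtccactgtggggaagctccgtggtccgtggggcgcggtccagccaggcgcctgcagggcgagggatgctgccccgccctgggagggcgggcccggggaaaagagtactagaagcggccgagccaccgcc
Lgals9, chr11:78984875-78985174, minus strand: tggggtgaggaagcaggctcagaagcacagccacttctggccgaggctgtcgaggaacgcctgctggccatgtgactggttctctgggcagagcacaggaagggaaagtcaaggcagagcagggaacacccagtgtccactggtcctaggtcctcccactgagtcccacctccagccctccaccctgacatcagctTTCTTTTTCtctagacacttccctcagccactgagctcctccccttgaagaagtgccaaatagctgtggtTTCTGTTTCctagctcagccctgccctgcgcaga
The Lgals9 window held 2 matches, both on the strand opposite to the gene, beginning 54 bases before the start and at base 17 of the transcript. These letters were found in 2812 of all 32851 such windows (8.56%). On both strands the windows were also searched for GAGGAAGT (PU.1, in 3.20% of all windows), TGANTCA (AP-1, in 7.81%), GGGANTTTC (NF-kB, in 1.11%), TTCNNNGAA (STAT, in 8.30%) and TATAAA (the TATA box, in 13.6%). No window of Lgals3, Lgals4, Lgals8 or Lgals9 held any of these, and those of Lgals3, Lgals4 and Lgals8 did not hold GAAANNGAA. A match is a run of letters, not a measured binding site.

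Levels are given as RPKM, the reads per kilobase of transcript relative to the size of the library, a unit inferred from the values because the table names none. The depth was estimated at 36800000 to 38600000 read pairs per library from the spacing of low values. The cord's own cell types were checked by marker lists. The summed level of 13 microglial genes was 211 and 214 RPKM in WT vehicle and WT + SD, against 959 RPKM in the vehicle and 1101 RPKM in the SD library of G93A mice. That of 8 astrocyte genes was 1744 and 1597 RPKM against 4210 and 4914 RPKM in the same order. Motor neuron genes (8 measured) summed to 1019 and 987 RPKM in the WT libraries and to 567 RPKM under vehicle and 378 RPKM under SD in G93A. Most of this sum came from Nefm and Nefh, at 612.5 and 327.2 RPKM in WT vehicle. Of the 8, 4 were at least 1.5-fold lower in G93A than in WT under vehicle and 6 under SD, and 0 were higher. Of all names, 5.31% and 7.82% were lower, and 14.4% and 17.1% higher. Isl1 had 0.770 and 0.760 RPKM in WT, and 0.806 and 0.812 RPKM in G93A. Oligodendrocyte genes (6 measured) summed to 6573 to 9067 RPKM, lower in both G93A libraries. In bulk tissue, more cells of a type and more RNA per cell cannot be told apart.

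Lgals1, Lgals3 and Lgals9 were higher in both G93A libraries than in either WT library, while Lgals4 and Lgals8 did not differ by 1.5-fold between any pair compared. The fold of 1.5 was taken on log2(RPKM + 0.1), the scale of every log2 fold change given here. In G93A vehicle against WT vehicle, 3 of the 5 galectins were at least 1.5-fold higher and 0 were lower, where 14.4% of all names were higher and 5.31% were lower at that size. In G93A + SD against WT + SD the same 3 genes were higher and 0 were lower, against 17.1% and 7.82% of all names. These 3 genes were also at least 1.5-fold higher in each G93A library than in each WT library, as were 10.4% of all names. The median log2 fold change of the 5 members was 1.17 under vehicle and 1.55 under SD, and that of all names was 0.046 and 0.050. These comparisons address the question whether gene expression in the cord differs with the ALS genotype and with SD.

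**Figure D1:**
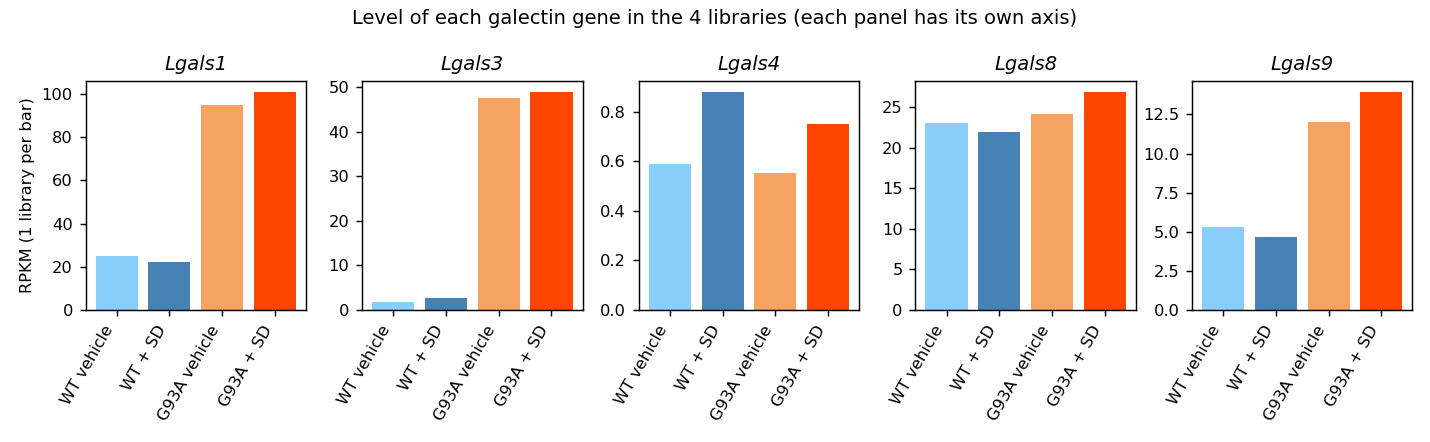
RPKM (vertical axis) of each galectin gene in the WT libraries (blue) and the G93A libraries (orange and red), under vehicle and under SD, 1 library per bar, with a separate axis for each gene. Lgals1, Lgals3 and Lgals9 are higher in both G93A libraries, Lgals8 lies between 22.0 and 26.9 RPKM in all 4, and Lgals4 stays below 1 RPKM.

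Lgals3 had the largest difference between genotypes among the 5. In WT mice it was at 1.80 RPKM under vehicle and 2.69 RPKM under SD, and in G93A mice at 47.7 RPKM under vehicle and 49.0 RPKM under SD. Both WT libraries were low and the G93A libraries lay close to each other. The G93A to WT ratio was 26.5 under vehicle, a log2 fold change of 4.65, and 18.2 under SD, a log2 fold change of 4.14. Of all 18674 names, 27 had a higher log2 fold change than Lgals3 under vehicle, and 65 had a higher one under SD. The smaller difference under SD came with a higher WT value and not with a lower G93A value. WT + SD was 1.49 times WT vehicle, a log2 fold change of 0.55 that falls just short of 1.5-fold, and G93A + SD was 1.03 times G93A vehicle. The table lists Lgals3 as transcripts NM_001145953 and NM_010705, whose values stood in a ratio of 1.02 in every library, so that they do not separate the isoforms. About 85.4 read pairs were estimated behind the NM_001145953 value in WT vehicle and 132 in WT + SD, against 2331 and 2431 in the G93A libraries.

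Lgals1 was the most abundant of the 5 in every library. The WT libraries held 24.8 RPKM under vehicle and 22.1 RPKM under SD, and the G93A libraries 95.0 RPKM under vehicle and 101 RPKM under SD. The G93A libraries stood well above the WT libraries under either treatment. The ratio between genotypes was 3.83 under vehicle and 4.56 under SD, with log2 fold changes of 1.93 and 2.18. With SD the value was 0.893 times that of vehicle in WT and 1.06 times in G93A. Lgals1 stood at rank 2309 of all names by RPKM in WT vehicle and at rank 377 in G93A vehicle. Estimated read pairs ran from 678 in WT + SD to 3120 in G93A + SD.

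Lgals9, which encodes the TIM-3 ligand, differed less. Its level in WT was 5.31 RPKM under vehicle and 4.69 RPKM under SD, and its level in G93A was 12.04 RPKM under vehicle and 13.9 RPKM under SD. The G93A libraries were again the higher ones, and G93A + SD was the highest. The log2 fold change between genotypes was 1.16 under vehicle, a ratio of 2.27, and 1.55 under SD, a ratio of 2.97. SD was 0.883 times vehicle in WT and 1.16 times vehicle in G93A. The listed transcripts NM_010708 and NM_001159301 kept a ratio between 1.05 and 1.06 in the 4 libraries. Each had at least 276 estimated read pairs in every library.

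Lgals8, the marker of damaged endosomes, was nearly level across the conditions. The vehicle libraries had 23.1 RPKM in WT and 24.2 RPKM in G93A, and the SD libraries 22.0 RPKM in WT and 26.9 RPKM in G93A. Both G93A values lay above both WT values, as was the case for 39.7% of all names, but by little. The log2 fold change between genotypes was 0.068 under vehicle and 0.29 under SD. The value rests on about 2350 estimated read pairs in WT + SD, the lowest of the 4 libraries. Of its 2740 windows of 53 bases, the read length, 38 (1.39%) also occur in a transcript of another gene.

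Lgals4 was the only member below 1 RPKM. Vehicle libraries had 0.589 RPKM in WT and 0.552 RPKM in G93A, and SD libraries 0.879 RPKM in WT and 0.751 RPKM in G93A. Within each genotype the SD library was the higher one, and between genotypes the log2 fold change was -0.081 under vehicle and -0.20 under SD. The ratio of SD to vehicle was 1.49 in WT and 1.36 in G93A, with log2 fold changes of 0.51 and 0.38, both short of 1.5-fold. These values rest on about 29.0 to 46.6 estimated read pairs. Lgals6, a close copy of Lgals4 that some laboratory strains lack, followed it, with 0.705 and 0.610 RPKM in the WT and G93A vehicle libraries and 1.12 and 0.938 RPKM in the WT and G93A libraries under SD. The copies may share reads, and how such reads were assigned is not stated, so that the levels of both genes are uncertain. Of 1332 windows of 53 bases in Lgals4, 0 occur in a compared transcript of another gene. Lgals6 has no transcript among those compared, so this count cannot tell what the copies share. The gut epithelial genes Vil1, Cdh17, Epcam and Krt20 summed to 0.288 to 0.729 RPKM, with Epcam the highest of them in G93A + SD at 0.596 RPKM.

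**Figure D2:**
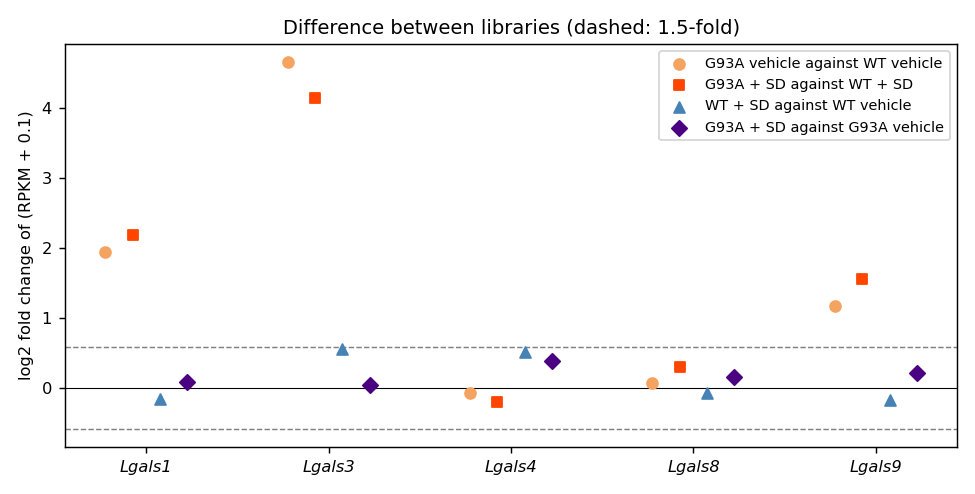
log2 fold change of (RPKM + 0.1) for each galectin (horizontal axis) in the 4 comparisons, 1 library against 1 library, with dashed lines at 1.5-fold in either direction. The comparisons between genotypes exceed the line for Lgals1, Lgals3 and Lgals9, and the comparisons of SD with vehicle stay within the lines for all 5 genes.

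SD compared with vehicle moved no galectin by 1.5-fold. In WT + SD against WT vehicle 0 of the 5 members were higher and 0 were lower at that size, against 2.25% and 2.8% of all names. In G93A + SD against G93A vehicle the counts were likewise 0 and 0, against 2.97% and 2.55%. The median log2 fold change of the members was 0.15 in G93A (0.0068 over all names) and -0.071 in WT (0.0044 over all names). In G93A the members ran from Lgals3, with 8144 of all 18674 names above it in log2 fold change, to Lgals4, with 1320 above it. The shares of all names past the fold in these comparisons are small, so that 0 of 5 is near the background. The comparisons share libraries: each vehicle and each SD library enters a comparison of genotype and a comparison of treatment.

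The order of the galectin levels differed between genotypes. In both WT libraries it ran Lgals1, Lgals8, Lgals9, Lgals3, Lgals4, and in both G93A libraries Lgals1, Lgals3, Lgals8, Lgals9, Lgals4. Lgals1 and Lgals8 were neighbours at nearly the same level in the WT libraries, at ratios of 1.07 and 1.01, whereas in the G93A libraries Lgals1 was 3.92 times Lgals8 under vehicle and 3.75 times under SD. Lgals3 was 0.078 times Lgals8 in WT vehicle and 1.97 times Lgals8 in G93A vehicle. The summed level of the 5 genes was 55.6 RPKM under vehicle and 52.4 RPKM under SD in WT, and 179.5 RPKM under vehicle and 192 RPKM under SD in G93A. Lgals3 made up 3.24% of this sum under vehicle and 5.14% under SD in WT, and 26.6% and 25.6% in G93A. The share of Lgals8 was 41.6% and 42.0% in the WT libraries, and 13.5% and 14.0% in the G93A libraries. With 1 library per condition, the spread that would say which neighbours in this order differ is unknown.

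**Figure D3:**
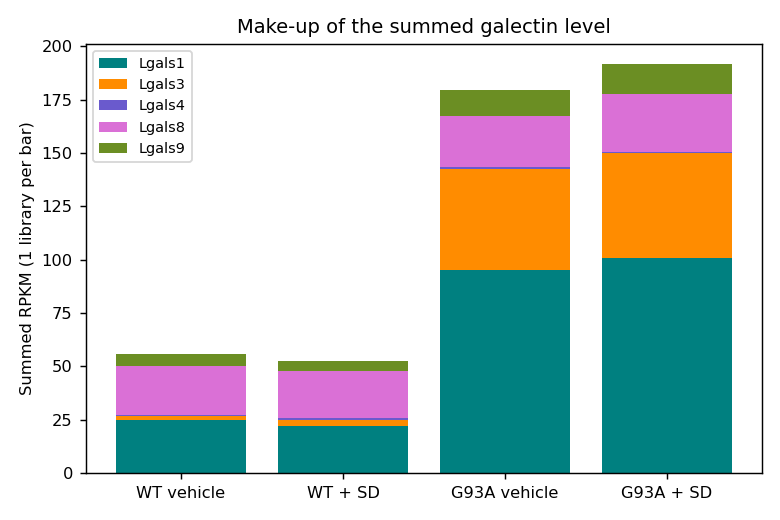
Summed RPKM of the 5 galectin genes (vertical axis) in each of the 4 libraries, with the part of each gene in its own colour. The sum is 55.6 and 52.4 RPKM in the WT libraries and 179.5 and 192 RPKM in the G93A libraries, where Lgals3 takes 26.6% and 25.6% of it.

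The other genes of the family that were measured were below 3 RPKM in every library, apart from Lgals3bp. This gene encodes a secreted glycoprotein that binds galectin-3 and is not itself a galectin. Its WT values were 9.73 RPKM under vehicle and 6.71 RPKM under SD and its G93A values 42.7 and 38.2 RPKM, with log2 fold changes between genotypes of 2.12 and 2.49. Grifin, a galectin-related protein first described in the eye lens, had 0.421, 0.447, 2.47 and 1.80 RPKM in the same order, on 9.50 to 57.5 estimated read pairs. Lgals2 had 0.916, 0.745, 1.27 and 1.69 RPKM, past 1.5-fold between genotypes under SD with a log2 fold change of 1.08 and not under vehicle, at 0.43. These values rest on about 20.0, 16.9, 28.6 and 38.7 estimated read pairs. Lgals7 and Lgals12 stayed below 0.1 RPKM. Of the 6 measured genes in this list, 2 were higher in G93A than in WT under vehicle and 3 under SD, with 0 lower in either, beside 14.4% and 17.1% of all names higher and 5.31% and 7.82% lower. For SD against vehicle, Lgals6 was the only one past 1.5-fold, in WT, with a log2 fold change of 0.60. Its level is uncertain because it may share reads with Lgals4. Of all names, 2.25% were higher and 2.8% lower in WT. In G93A these shares were 2.97% and 2.55%.

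Of 19 genes for proteins that galectins bind or signal through, 13 were at least 1.5-fold higher in G93A than in WT under vehicle and 0 were lower, with a median log2 fold change of 1.13. In G93A + SD against WT + SD, 14 were higher and 1, Kdr, which encodes a VEGF receptor, was lower, with a median of 1.26. Of all names, 14.4% were higher and 5.31% lower under vehicle, and 17.1% and 7.82% under SD. Several of the 19 are genes of microglia, whose markers were also higher. Havcr2, which encodes TIM-3, was at 1.25 RPKM in both WT libraries, 7.19 RPKM in G93A vehicle and 7.88 RPKM in G93A + SD. Trem2, a microglial receptor that binds galectin-3, was at 5.30 and 5.50 RPKM in the WT libraries, and at 65.1 RPKM under vehicle and 43.9 RPKM under SD in the G93A libraries. It was lower with SD in G93A, at a log2 fold change of -0.57, just short of 1.5-fold, whereas Lgals3 was at 0.038 in the same comparison. Mertk, a receptor for the uptake of dying cells, had 3.34 RPKM under vehicle and 4.11 RPKM under SD in WT, and 7.45 and 9.97 RPKM in G93A, and the next values follow this order. Cd44, a hyaluronan receptor, had 3.60, 3.65, 27.8 and 40.5 RPKM. Itgb1, the integrin chain that galectins cross-link on many cells, had 25.6 RPKM in WT and 45.7 RPKM in G93A under vehicle, with a log2 fold change of 0.83. Pdpn, which encodes the sialoglycoprotein podoplanin, had 3.56, 3.92, 17.2 and 26.6 RPKM in the order above and was the only gene of this list past 1.5-fold with SD in G93A, at a log2 fold change of 0.63, where 2.97% of all names were higher and 2.55% lower. With SD in WT, 0 of the 19 passed the fold in either direction, near the background of 2.25% and 2.8% of all names. Plxna4, a semaphorin receptor of neurons, and Cd47 were below WT in both comparisons of genotype without reaching 1.5-fold, and Ctla4 was below 0.1 RPKM throughout. Spn, counted among the 13 higher under vehicle, had only 0.011 RPKM in WT and 0.085 RPKM in G93A there. Under SD it fell short of the fold, at a log2 fold change of 0.58.

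**Figure D4:**
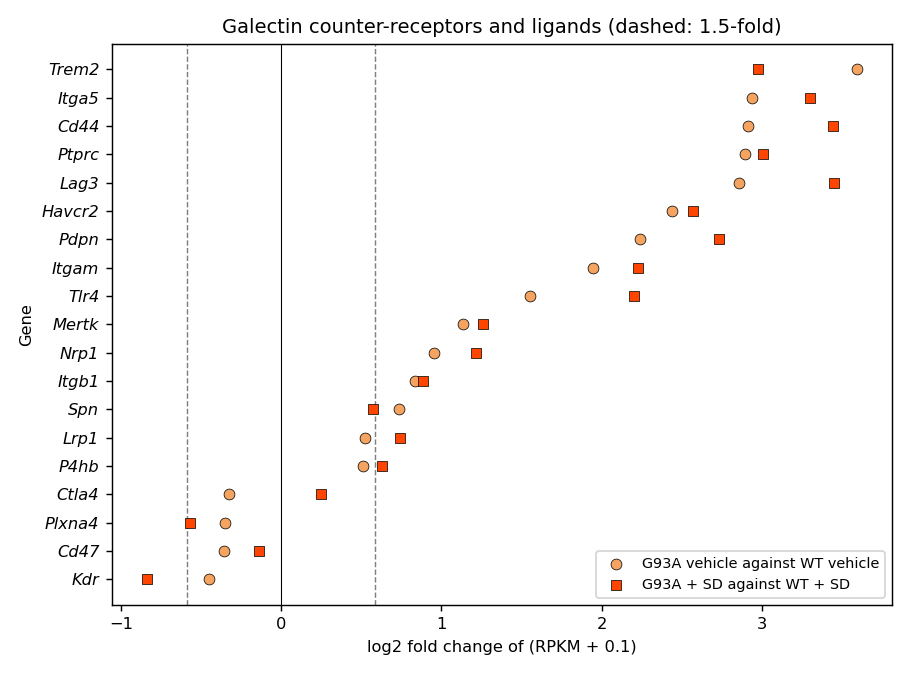
log2 fold change of (RPKM + 0.1) between genotypes (horizontal axis) for 19 galectin counter-receptors and ligands (vertical axis), under vehicle (circles) and under SD (squares), 1 library against 1 library, with dashed lines at 1.5-fold. Trem2 has the highest value under vehicle, at 3.59, and Kdr is past the line on the lower side under SD, at -0.83.

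Genes that act with galectin-3, galectin-8 and galectin-9 at damaged lysosomes were mostly within 1.5-fold between genotypes. Of 18 measured, 1 was higher and 1 lower in G93A vehicle against WT vehicle, where 14.4% of all names were higher and 5.31% lower, and the median log2 fold change was -0.0021. Lamp2, a lysosomal membrane glycoprotein, was the higher one, with 43.3 RPKM under vehicle and 44.8 RPKM under SD in WT, and 84.9 and 100.8 RPKM in G93A. Vcp, the segregase that extracts ubiquitinated proteins and is itself an ALS gene in man, was the lower one, with 15.7, 15.9, 7.65 and 7.53 RPKM in this order. In G93A + SD against WT + SD, Lamp1 also passed the fold, at a log2 fold change of 0.62. There 2 genes were higher, Lamp1 and Lamp2, and 1, Vcp, was lower, with a median of -0.15. Of all names, 17.1% were higher and 7.82% lower in that comparison. Trim16, a ubiquitin ligase that works with galectin-3, had 2.04 to 2.35 RPKM in the 4 libraries. Calcoco2, whose human product is the galectin-8 receptor of selective autophagy, stayed below 0.1 RPKM. With SD against vehicle 0 of the 18 passed the fold in either genotype, which is near the background of 2.25% higher and 2.8% lower among all names in WT and 2.97% and 2.55% in G93A.

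Enzymes that build or cap the glycans bound by galectins were examined as a further list of 16 genes. In G93A vehicle against WT vehicle 4 were higher and 0 were lower, with a median log2 fold change of 0.22, and the counts under SD were the same, with a median of 0.27. Of all names, 14.4% were higher and 5.31% lower under vehicle, and 17.1% and 7.82% under SD. The 4 genes were B4galt1, B3gnt5, Gcnt1 and St6gal1 in both comparisons. B4galt1, which adds the galactose that galectins recognise, had 1.17 RPKM under vehicle and 1.12 RPKM under SD in WT, and 4.18 and 4.53 RPKM in G93A. St6gal1, whose sialic acid blocks binding of galectin-1, had 6.87, 7.62, 10.6 and 11.6 RPKM in this order. Gcnt1, which branches O-glycans, had 1.01, 0.895, 2.40 and 4.73 RPKM and was the only gene of this list past 1.5-fold with SD in G93A, at a log2 fold change of 0.95, where 2.97% of all names were higher and 2.55% lower. With SD in WT, 0 of the 16 passed it, beside 2.25% and 2.8% of all names. Mgat5, the enzyme of N-glycan branching that makes preferred galectin-3 ligands, was lower in G93A without reaching 1.5-fold, with 8.57, 8.35, 6.94 and 7.34 RPKM.

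The galectin differences went with those of glial markers. Of the 13 microglial genes, 10 were higher in G93A than in WT under vehicle and 11 under SD, with 0 lower and medians of 2.26 and 2.42 on the log2 scale. Of all names, 14.4% and 17.1% were higher and 5.31% and 7.82% lower in these comparisons, with medians of 0.046 and 0.050. Among markers of resting microglia, P2ry12 and Sall1 were not past the fold in either comparison, Tmem119 passed it under SD at a log2 fold change of 1.21, and Cx3cr1 (1.56 and 1.92) and Siglech (0.84 and 0.70) passed it in both. Among genes of activated microglia, Itgax, Clec7a, Cst7 and Gpnmb had log2 fold changes of 6.11 to 7.09 under vehicle and Spp1 one of 2.34. In WT vehicle Itgax, Clec7a, Cst7 and Gpnmb lay between 0.092 and 0.325 RPKM. This is near the pseudocount of 0.1 RPKM, on which the size of their folds depends. Of the 8 astrocyte genes, 5 and 6 were higher and 0 lower, with medians of 0.81 and 1.10. None of the microglial or astrocyte markers was at 0 in any library. The part of these cells in the galectin values was not tested. Blood cell markers were near 0, the 10 measured genes for monocytes, neutrophils and T cells summing to 1.13 RPKM under vehicle and 1.28 RPKM under SD in WT, and to 2.81 and 1.42 RPKM in G93A. Of the 10, 5 were higher and 0 lower under vehicle between genotypes (Ccr2, Plac8, S100a8, S100a9 and Cd3g), and 2 were higher and 1 lower under SD (Ngp and Camp, and Plac8). In this list, Ly6c2, Plac8, Camp, Cd3e and Cd8a were at 0 in at least 1 library. Genes of meningeal fibroblasts, endothelium and Schwann cells (8 measured) summed to 26.5 to 28.0 RPKM with no order by genotype. Single genes of this list did pass the fold: Col1a1, a collagen chain of fibroblasts, was higher in G93A with log2 fold changes of 1.18 under vehicle and 1.68 under SD, and Prx with 0.69 and 1.11. Lum was also higher under SD, Pmp2 was lower under vehicle and Cldn5 was lower under SD.

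For the 4 members whose mean reached 1 RPKM, the genes of the most similar pattern were sought among names whose mean reached 5 RPKM. Likeness was measured as the largest absolute difference from the member in log2 level, centred over the 4 libraries. The nearest to Lgals3 were Cd48, a leukocyte surface protein, at 0.13, Atf3, a stress-induced transcription factor, at 0.16, and Cd68, a lysosomal glycoprotein of phagocytes, at 0.22. Cd68 had 3.75 RPKM under vehicle and 4.06 RPKM under SD in WT, and 85.2 and 82.6 RPKM in G93A. Nearest to Lgals1 were Itgam, the integrin chain of microglia and myeloid cells, at 0.029, Sbno2 at 0.054 and Dnase2a, a lysosomal nuclease, at 0.064. Those nearest to Lgals9 were Lamb2, a laminin chain, at 0.029, Flna, an actin cross-linker, at 0.044 and Lix1l at 0.045. Asrgl1, Parn and Zfand6, at 0.0080, 0.010 and 0.013, were nearest to Lgals8. With 4 libraries and 8846 names compared for each member, close matches are to be found for many genes, and the measure is a description.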

How the data were processed

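Lumbar spinal cord RNA was measured in 4 libraries, 1 per condition: vehicle or SD, in WT or G93A mice. Per the labels and methods, the authors sequenced polyA RNA, aligned 53-base reads to GRCm38 (STAR) and counted them (HTSeq). The RPKM values deposited by the authors list RefSeq transcripts in 23750 rows, and the step that leads to them is not given in the sources used here. The unit was inferred from the values. The 3 ratio columns, which hold the authors' own comparisons, were not used. Rows of a gene name were averaged, and log2 fold changes have a pseudocount of 0.1 RPKM and no filter. A name was called at 1.5-fold. With 1 library per condition and no replicates, no test was run.

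Read pairs are estimates: low RPKM values multiplied by the length of the paired GENCODE M21 transcript (found for 97.0% of rows) peak at a step taken as 1 pair. They carry no interval. Members' transcripts were compared with those of other genes in windows of 53 and 108 bases. Named genes are the 5 members, the genes of fixed lists, and the 3 names nearest in pattern to each member whose mean reaches 1 RPKM. Of the listed genes, Lgalsl, Tfeb, Trac and Cdx2 were not analysed here, and 1 other marker is not reported here. The members and lists were chosen with earlier results of these data known. The alternatives were no pseudocount, a pseudocount of 1 RPKM, median-ratio scaling, a mean of at least 1 RPKM, 2-fold, and the highest row of a name. Calculations ran in Python 3.11.15 with pandas 2.3.3, numpy 2.4.6 and matplotlib 3.10.9, and the code that calls fold changes was checked on simulated data.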

Additional observations from a re-analysis of the deposited data

Results flagged for a closer look

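Lgals1, Lgals8 and Lgals9 were lower with SD than with vehicle in WT mice and higher with SD in G93A mice. The log2 fold change with SD in G93A minus that in WT was 0.25 for Lgals1 (0.088 against -0.16), 0.22 for Lgals8 (0.15 against -0.071) and 0.39 for Lgals9 (0.21 against -0.18). It was -0.51 for Lgals3 and -0.12 for Lgals4, which were higher with SD in both genotypes. Genes were flagged for opposite signs of any size, and the share of all names with opposite signs was not counted. None of these changes with SD reached 1.5-fold, each rests on 1 library per condition, and the difference was not tested.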

How the results depend on the processing

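In each of the 6 alternatives, 3 galectins were past the fold in either comparison of genotype, all of them higher, and 0 in either comparison of SD with vehicle. A mean of at least 1 RPKM leaves out Lgals4. All 80 alternative log2 fold changes of the members kept their sign and their side of 1.5-fold. Those of Lgals3 ran from 4.12 to 4.72 in G93A vehicle against WT vehicle, and from 0.40 to 0.58 in WT + SD against WT vehicle. The level order was the same with the highest row of a name. What moved was the number of all names past the fold. In G93A vehicle against WT vehicle 2687 names were higher and 991 lower. No pseudocount gave 3782 and 1915, and a pseudocount of 1 RPKM 1552 and 355. A mean of at least 1 RPKM gave 1696 and 563, and 2-fold 1370 and 208. In G93A + SD against WT + SD 3189 were higher and 1460 lower. Without a pseudocount the numbers were 4341 and 2340, with 1 RPKM 1950 and 782, with the filter 2055 and 1020, and at 2-fold 1732 and 336. For SD in WT the numbers were 420 higher and 522 lower, and 1341 and 1597, 50 and 83, 95 and 151, and 101 and 172 under these alternatives in turn. For SD in G93A they were 555 and 476, and 1626 and 1366, 112 and 85, 161 and 121, and 150 and 135. Median-ratio scaling and the highest row of a name changed these numbers by less than 1.5-fold and are not listed. Low genes enter or leave with the pseudocount and the filter by construction, and 2-fold is a stricter threshold at any level. No paired analysis was run, as each condition has 1 library. Estimated read pairs limit Lgals4, Lgals2, Grifin, Lgals7 and Lgals12.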
